A study of Homo sapiens with 5 samples.

Results

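SLC5A3_1, C8orf58 and RIMKLA are the 3 genes described here, out of 57773 gene identifiers in the deposited table, and they were matched by the gene name of their row. They had been picked in earlier work on the same table because they carry a let-7a seed site and had low values with native let-7a, so the values in that library and in the negative control chose them and are given as a description. The cells were HCT116, an established line from a human colorectal carcinoma, described for the series as lacking Dicer, a background that all 5 groups share. Dicer is the ribonuclease that cuts mature microRNAs from their hairpin precursors. Its transcript, DICER1, was present in every library, at 15.4 TPM in the control, 11.2 (native) and 12.5 (methylated) in the let-7a libraries, and 15.9 (native) and 12.9 (methylated) in the miR-17 libraries. A TPM over the whole gene does not show which exons are left, so these values do not check the knockout, which rests on the label. One group was transfected with a negative control, and the others with let-7a, either native or methylated (label 19A), or with miR-17, either native or methylated (label 13A), with 1 RNA library each. The type of methylation, the dose, the time after transfection and whether the knockout line is 1 clone are not stated in the labels.

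A microRNA guides an Argonaute protein to mRNAs that pair with its seed, the bases near its 5′ end, and the bound mRNA is then translated less and decays sooner. Let-7 is a family that is low in stem cells and high in differentiated tissue, and it is known for restraining growth genes such as HMGA2 and the RAS genes. MiR-17 belongs to a cluster that is abundant in many tumours, including those of the colon. SLC5A3 encodes a sodium-coupled transporter that brings myo-inositol, an organic osmolyte and precursor of inositol lipids, into cells. RIMKLA encodes a ligase that joins N-acetylaspartate and glutamate into the dipeptide NAAG. C8orf58 is a protein-coding gene still known by an open reading frame name.

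The mature sequences are shown because the choice of the genes rests on the seed, with positions 2 to 8 in capitals (RefSeq, GRCh38.p14). Positions 19 of let-7a and 13 of miR-17, counted from the 5′ end, are both A, and the numbers in the labels were read as these positions. The sequences of the transfected oligonucleotides are not given in the labels.
let-7a-5p: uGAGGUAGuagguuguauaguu
miR-17-5p: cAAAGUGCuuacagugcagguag

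Sites in SLC5A3 and RIMKLA are shown because these genes hold matches to both microRNAs, 5 of their 7 sites in all. A miR-17 7mer at base 4300 of SLC5A3 and another at base 5861 of RIMKLA are not printed. Each is a stretch of 30 bases of the mRNA in DNA letters, 5′ to 3′, from the longest annotated 3′ UTR in GENCODE 29, with the seed match in capitals and its last base facing position 1 of the microRNA. The let-7a matches searched were CTACCTCA (8mer), CTACCTC and TACCTCA (7mers), on the mRNA strand, and those for miR-17 were GCACTTTA (8mer), GCACTTT and CACTTTA (7mers). Each 8mer contains both 7mers and was counted once.
SLC5A3, let-7a, base 3252 of the 3′ UTR: gtagccatagctcttagggatgaTACCTCA
RIMKLA, let-7a, base 5245: cactgctgactccacacttctgCTACCTCA
SLC5A3, miR-17, base 5193: tctgtatcattgctaatcttgtGCACTTTA
RIMKLA, miR-17, base 568: cctcattagcattttcagtgaaGCACTTTg
RIMKLA, miR-17, base 2176: gtttggtgtgaatctagtctcccCACTTTA

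SLC5A3 had 1 let-7a match, a 7mer, and 2 miR-17 matches, 1 of them an 8mer. RIMKLA had 1 let-7a match, an 8mer, and 3 miR-17 matches, all 7mers. C8orf58 had 1 let-7a match, an 8mer at base 871 of a 932-base 3′ UTR, and 0 miR-17 matches in this or any other annotated 3′ UTR. In an unbroken register, 0 of the 4 bases facing let-7a positions 13 to 16 were complementary in each of the 3 genes. The base facing position 19 was complementary in SLC5A3 and not in RIMKLA or C8orf58. For miR-17, 2 of the 4 bases facing positions 13 to 16 were complementary at base 4300 of SLC5A3 and at base 2176 of RIMKLA. At the other miR-17 sites it was 1 or 0. The base facing miR-17 position 13 was complementary at bases 4300 and 2176 only. Of the 12022 genes tested whose 3′ UTR could be searched, 18.0% had a let-7a match and 8.99% had matches to both microRNAs, as SLC5A3 and RIMKLA do. A let-7a 8mer without a miR-17 match, as in C8orf58, was present in 257 genes (2.14%). The 3′ UTRs of SLC5A3 (8907 bases) and RIMKLA (7604 bases) were longer than those of 98.4% and 97.5% of the searched genes, whose median was 1356 bases, while that of C8orf58 was longer than 37.9% of them.

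**Figure D1:**
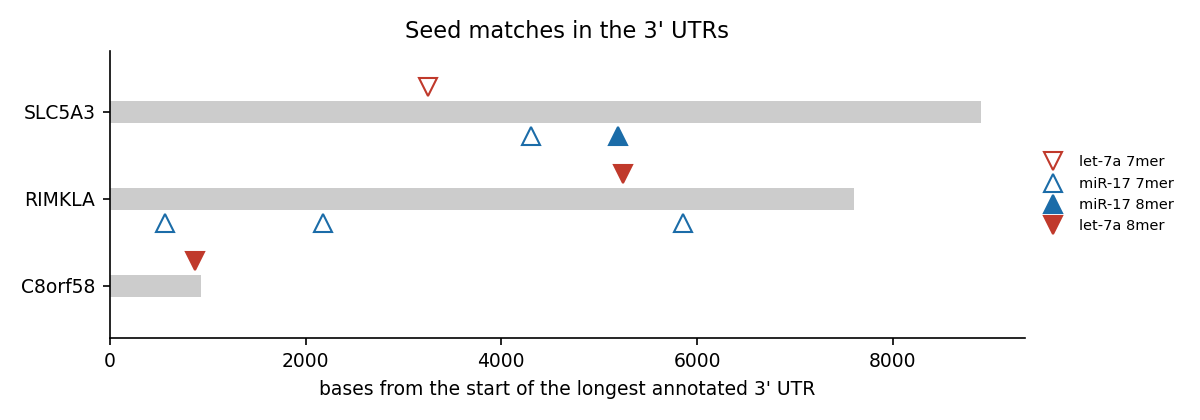
Seed matches in the longest annotated 3′ UTR of each gene, drawn to scale in bases from its start (grey bars); let-7a matches are red triangles above, miR-17 matches blue triangles below, filled for 8mers and open for 7mers. SLC5A3 and RIMKLA hold matches to both microRNAs, and C8orf58 holds 1 let-7a match near the end of a 932-base 3′ UTR.

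The line was checked against marker genes before the members were read. The 5 epithelial markers (EPCAM, KRT8, KRT18, KRT19, CDH1) summed to between 7156 and 8783 TPM (a length-scaled share of the library's transcripts). All 4 blood markers and the endothelial markers CDH5 and VWF were under 1 TPM in every library, and the 4 fibroblast markers summed to between 11.8 and 17.1 TPM, nearly all of it COL1A1. PECAM1, also on the endothelial list, has no value in this summary, so it was not checked. Mitochondrial transcripts held 9.36% to 12.6% of the TPM, highest in the control, and cytosolic ribosomal protein genes 14.2% to 17.6%, lowest in the control. The part of these shares in the results was not tested. Depth is unknown, because TPM columns sum to a fixed total. With 1 library per group there is no replicate check, no standard deviation and no p-value, so no 2 neighbouring levels can be separated by a replicate spread. The error that can be stated is that of rounding to 1 decimal.

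SLC5A3_1 (identifier ENSG00000198743, chromosome 21) had 31.0 TPM in the control, 9.6 (native) and 16.4 (methylated) in the let-7a libraries, and 10.7 (native) and 7.9 (methylated) in the miR-17 libraries. The control stood highest, as it did in all 3 genes and in 26.5% of the genes tested, with methylated let-7a second, and the lowest library was methylated miR-17, not native let-7a. Of the genes tested, 9.9% had the control highest and methylated let-7a second. Methylated miR-17 was the lowest library in 33.9% of them and native let-7a in 11.8%. In native let-7a the level was 31.0% of the control (30.8% to 31.2% by rounding alone), a 3.02-fold lower TPM + 1. In a bulk library, fewer expressing cells and less RNA per cell cannot be told apart.

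The same symbol has a second row, SLC5A3_2 (ENSG00000272962), whose identifier is not in GENCODE 29. It had 31.2 TPM in the control, 9.3 (native) and 16 (methylated) in the let-7a libraries, and 9.8 (native) and 10.6 (methylated) in the miR-17 libraries. The rows lay within 0.9 TPM of each other in 4 libraries and 2.7 TPM apart in methylated miR-17, where SLC5A3_1 was the lower. Of 13 symbols with 2 rows of at least 5 TPM each, only 2, SLC5A3 among them, had rows within 0.5 (log2) of each other in every library. How reads were divided between these rows is not given in the sources used here, so the level of either row is uncertain. Their sum was 62.2 TPM in the control and 18.9, 32.4, 20.5 and 18.5 TPM in the microRNA libraries, ordered native, methylated let-7a and then native, methylated miR-17.

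SLC5A3 lies within MRPS6, a mitochondrial ribosomal protein gene with the same start in RefSeq. MRPS6 had 52.9 TPM in the control, 40.4 and 44.7 (native, methylated) in the let-7a libraries, and 37.6 and 42.7 in the miR-17 libraries. Its lowest library was thus 71.1% of the control, against 25.5% for SLC5A3_1. Reads from sequence that the genes share cannot be assigned with certainty.

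C8orf58 (ENSG00000241852) had 24.2 TPM in the control, 8.9 (native) and 16.1 (methylated) in the let-7a libraries, and 16.5 (native) and 15.5 (methylated) in the miR-17 libraries. Native let-7a stood lowest, the control highest, and the other 3 libraries lay within 1.0 TPM of each other. The native let-7a level was 36.8% of the control (36.5% to 37.1% by rounding), a 2.55-fold lower TPM + 1. Its neighbour CCAR2, a regulator of deacetylases, had between 66.3 and 79.0 TPM, and its other neighbour PDLIM2, a LIM domain protein, between 9.2 and 11.2 TPM. PDLIM2 with native let-7a was 85.7% of its control level, and CCAR2 104.5%. BIN3, a BAR domain protein gene on the far side of CCAR2, had 8.8 TPM in the control, 6.4 (native) and 7.5 (methylated) in the let-7a libraries, and 8.7 (native) and 7.3 (methylated) in the miR-17 libraries. BIN3 was thus also lowest with native let-7a, as were 11.8% of the genes tested, at 72.7% of its control level.

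RIMKLA (ENSG00000177181, chromosome 1) had 10.1 TPM in the control, 4.2 (native) and 5.7 (methylated) in the let-7a libraries, and 3.6 (native) and 3.5 (methylated) in the miR-17 libraries. The 4 microRNA libraries all lay at or below 56.4% of the control, and the miR-17 libraries were the lowest. The native let-7a level was 41.6% of the control (40.9% to 42.3% by rounding), a 2.13-fold lower TPM + 1. The levels in the miR-17 libraries differ by 0.1 TPM, and rounding alone allows them to be equal. Its neighbour FOXJ3, a forkhead transcription factor, had 37.1 TPM in the control, 34.3 and 35.1 in the let-7a libraries and 27.9 and 25.4 in the miR-17 libraries, and its neighbour ZMYND12 was under 1 TPM throughout.

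**Figure D2:**
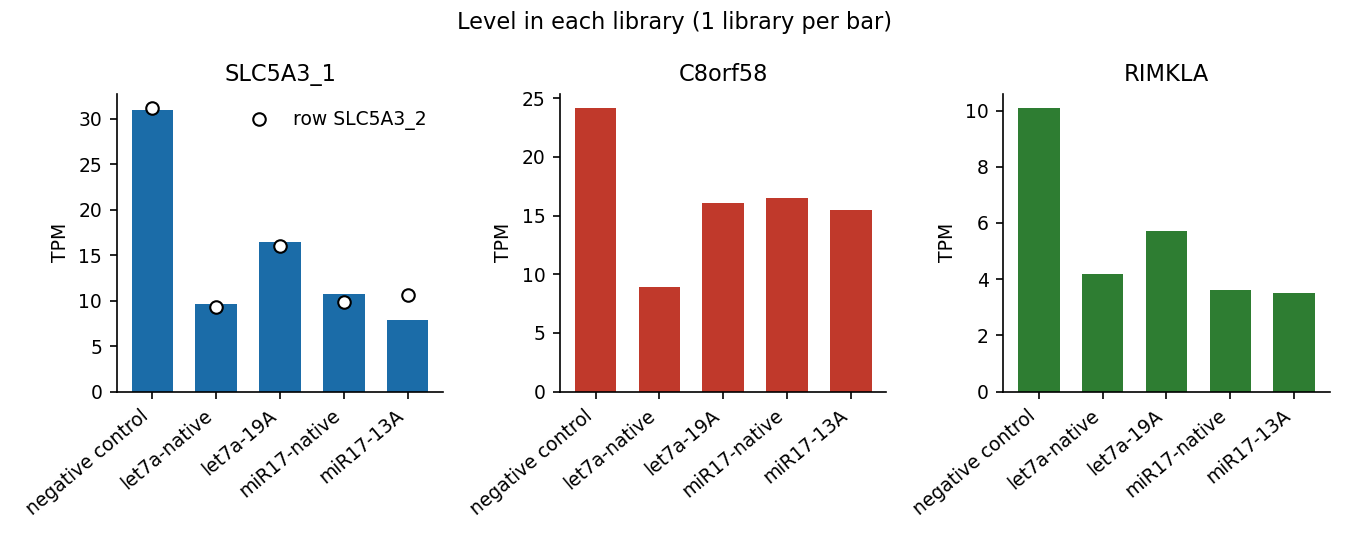
TPM of SLC5A3_1, C8orf58 and RIMKLA in each of the 5 libraries, 1 library per bar, with the second SLC5A3 row as open circles. C8orf58 is lowest with native let-7a (8.9 TPM), whereas SLC5A3_1 (7.9 TPM) and RIMKLA (3.5 TPM) are lowest with methylated miR-17; the second SLC5A3 row is lowest with native let-7a (9.3 TPM), and rounding allows equal miR-17 levels in RIMKLA.

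The comparison of native let-7a with the control asks which transcripts were lower in the library with the unmodified microRNA, and it is the one that chose these genes. Differences are of log2(TPM + 1), which understates the change of low genes, over the 14177 genes that averaged 1 TPM or more. They were -1.59 for SLC5A3_1, -1.35 for C8orf58 and -1.09 for RIMKLA. All 3 were at least 2-fold lower, a rule of size that 1.18% of genes met, and nothing is read from that count because the same contrast chose them. With a pseudocount of 5 RIMKLA no longer met it (-0.71). Ordered by this difference among the 1775 let-7a site genes that averaged 5 TPM or more, they stood at places 1, 2 and 3. The next in order were the hexokinase HK2 at -1.03 (79.5 to 38.5 TPM), the row FAM47E-STBD1_1 at -0.96 (26.0 to 12.9 TPM) and CPOX, an enzyme of haem synthesis, at -0.95 (346.6 to 179.5 TPM). Over all 2159 let-7a site genes the median difference was -0.07, and 4 of them were at least 2-fold lower, these 3 genes and HK2. Another 4 were at least 2-fold higher. At least 2-fold lower were 54 of all 12022 searched genes and 39 of the 7158 with no match to either microRNA. Both are larger shares than that of the site genes. Lower by any amount were 61.8% of the let-7a site genes, 48.9% of all searched genes and 44.5% of those with no match. The part of the matches in these shares was not tested. The order of site genes depends on the 3′ UTR searched. With a let-7a match in any annotated 3′ UTR, 1921 genes averaged 5 TPM or more, and SLC5A3_1, C8orf58 and RIMKLA stood at places 2, 3 and 5, with ESR1, the oestrogen receptor, ahead of them and HMGA2 (-1.19) at place 4. ESR1 was listed at 0 with native let-7a and at 12.6 TPM in the control, 15.9 with the methylated form and 14.6 (native) and 13.1 (methylated) in the miR-17 libraries, and a value of 0 in such a table can be a failed estimate. By that search 7 of 2336 let-7a site genes were at least 2-fold lower, and the added ones were ESR1, HMGA2 and IGFBP3, named after their values were seen.

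Methylated against native let-7a compares the libraries whose labels differ in methylation, and the cause of a difference between single libraries was not tested. SLC5A3_1 had 16.4 against 9.6 TPM (170.8% of native, 169% to 172% by rounding), C8orf58 16.1 against 8.9 TPM (180.9%, 179% to 182%) and RIMKLA 5.7 against 4.2 TPM (135.7%, 133% to 139%). The log2 differences were 0.72, 0.79 and 0.37, and 1.57%, 1.38% and 4.17% of the genes tested lay higher. None of the 3 was at least 2-fold higher, as 0.938% of genes were. A low native value chose the genes, which alone favours a higher value in the other library, so nothing is read from this direction. The methylated library made up 31.8% of the distance from native let-7a to the control in SLC5A3_1, 47.1% in C8orf58 and 25.4% in RIMKLA. Against the control, methylated let-7a differed by -0.88 for SLC5A3_1, -0.56 for C8orf58 and -0.73 for RIMKLA, none at least 2-fold lower (0.98% of genes were).

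In the miR-17 libraries the 3 genes parted. With native miR-17 the differences from the control were -1.45 for SLC5A3_1 and -1.27 for RIMKLA, both at least 2-fold lower (1.71% of genes), and -0.53 for C8orf58. With methylated miR-17 they were -1.85, -1.30 and -0.61, and again SLC5A3_1 and RIMKLA but not C8orf58 were at least 2-fold lower (2.36% of genes). With a pseudocount of 5 RIMKLA was short of 2-fold with native (-0.81) and methylated (-0.83) miR-17. Only 0.501% and 0.783% of the genes tested were lower than SLC5A3_1 and RIMKLA with native miR-17, against 7.48% for C8orf58. SLC5A3 and RIMKLA have miR-17 matches and C8orf58 has 0, and the part of the matches in this difference was not tested. With native miR-17, 66 of the 2705 genes with a miR-17 but no let-7a match were at least 2-fold lower. So were 20 of the 1081 genes with matches to both microRNAs, SLC5A3_1 and RIMKLA among them. The same held for 48 of the 7158 genes with no match to either microRNA and for 141 of all 12022 searched genes. The miR-17 comparisons share the control library with that of native let-7a, and a high control value helped to choose all 3 genes.

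Site classes over all searched genes give the setting for these values. The 1081 genes with matches to both microRNAs had a median difference from the control of -0.07 with native let-7a. For miR-17 it was -0.06 (native) and -0.21 (methylated). Of these 1081 genes, 2 were at least 2-fold lower with native let-7a, SLC5A3_1 and RIMKLA, and 20 with native miR-17. Among all 12022 searched genes the counts were 54 and 141, and their median with methylated miR-17 was -0.07. The 7158 genes with no match to either microRNA had medians of 0.03 with native let-7a and 0.05 with native miR-17. Of them, 39 and 48 were at least 2-fold lower. With matches to both microRNAs in any annotated 3′ UTR the class held 1235 genes, and ESR1 and HMGA2 joined SLC5A3_1 and RIMKLA as at least 2-fold lower with native let-7a. The 257 genes with a let-7a 8mer and no miR-17 match had medians of -0.09 with native let-7a and 0.06 with native miR-17, and 1 of them, C8orf58, was at least 2-fold lower with native let-7a. The 664 genes with a miR-17 8mer, which include SLC5A3_1, had a median of -0.28 with native miR-17. The 3 genes lay far from the median of the class that each belongs to, and the class was part of how they were chosen. With native let-7a that distance was set by the choice itself, so nothing is read from it. The miR-17 comparisons share the control library, whose high values helped to choose the genes. Long 3′ UTRs also moved with some of these values. The 378 genes whose 3′ UTR had 7000 bases or more had a median of -0.19 with methylated miR-17 against the control, compared with -0.07 in the 11644 genes with shorter ones. With native miR-17 these medians were -0.04 and 0.01, and with native let-7a -0.04 and 0.0. Of the 378 genes, 227 had matches to both microRNAs, and their median with methylated miR-17 was also -0.19. The part of 3′ UTR length in the levels of SLC5A3_1 and RIMKLA was not tested.

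**Figure D3:**
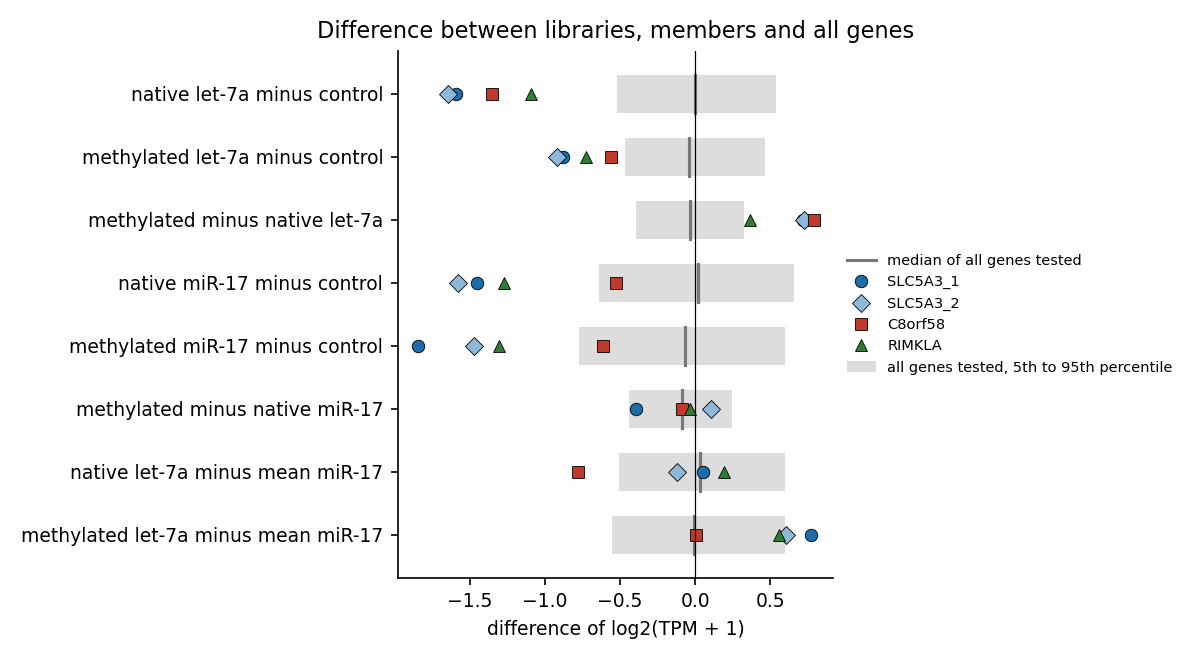
Differences of log2(TPM + 1) between libraries for the 3 genes and the second SLC5A3 row (coloured symbols), with the range from the 5th to the 95th percentile (grey bars) and the median (grey ticks) of all genes tested. C8orf58 lies inside the grey range in both miR-17 comparisons with the control and below it in native let-7a minus mean miR-17 (-0.78), while SLC5A3_1 and RIMKLA lie below it in every comparison with the control. The native let-7a and control values chose the genes, so places in comparisons with either library were favoured in advance.

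Comparing the let-7a libraries with the miR-17 libraries leaves the control out. Native let-7a minus the mean of the miR-17 libraries was -0.78 for C8orf58, a difference below which 1.8% of the genes tested lay. It was 0.05 for SLC5A3_1 and 0.19 for RIMKLA, and it changed sign to -0.12 in the row SLC5A3_2 and to -0.04 in the sum of the SLC5A3 rows. Low native let-7a values helped to choose the genes, so nothing is read from the place of C8orf58 in this contrast. Methylated let-7a minus the mean of the miR-17 libraries uses neither of the libraries that chose the genes. It was 0.77 for SLC5A3_1, higher than 97.3% of the genes tested, 0.56 for RIMKLA, higher than 94.2%, and 0.01 for C8orf58, higher than 52.2%. None of these reached 2-fold, as 1.28% of genes did. C8orf58 with methylated let-7a was thus at the level of the miR-17 libraries, and SLC5A3_1 and RIMKLA were above it.

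Methylated against native miR-17 also uses neither library of the choice. SLC5A3_1 had 7.9 against 10.7 TPM (-0.39), C8orf58 15.5 against 16.5 TPM (-0.08) and RIMKLA 3.5 against 3.6 TPM (-0.03). All 3 were lower, as were 69.0% of the genes tested, whose median difference was -0.09. With median-of-ratios scaling RIMKLA turned to 0.037 and C8orf58 came to -0.0023. The row SLC5A3_2 was higher instead, at 0.10, and the sum of both rows gave -0.14.

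Genes with a like pattern were sought by the distance between profiles of log2(TPM + 1) over the 5 libraries, each centred on its own mean, among 10779 other genes of at least 5 TPM. Nearest to SLC5A3_1 were PLOD2, a collagen lysyl hydroxylase, at a distance of 0.35, LOXL2, a lysyl oxidase, at 0.365, and the row SLC5A3_2 at 0.393, where the median gene was at 1.48. PLOD2 had 52.2 TPM in the control, 18.6 (native) and 28.5 (methylated) in the let-7a libraries, and 19.6 (native) and 19 (methylated) in the miR-17 libraries. Nearest to RIMKLA were EGLN3, a prolyl hydroxylase that acts on HIF subunits, at 0.174, LOXL2 at 0.199 and TMEM158 at 0.205, with a median of 1.1. EGLN3 had 9.2 TPM in the control, 4.1 (native) and 6.1 (methylated) in the let-7a libraries, and 3.2 (native) and 3.3 (methylated) in the miR-17 libraries. LOXL2 ran 81.3, 35.9, 52.9, 31.8 and 29 TPM in the same order. PLOD2, LOXL2, EGLN3 and TMEM158 had 0 let-7a and 0 miR-17 matches in the 3′ UTR searched, while another annotated 3′ UTR of EGLN3 has 1 miR-17 match. RIMKLA was the sixth nearest to SLC5A3_1, at 0.472, with 5 genes closer. The control and native let-7a values that chose both genes enter this distance, so their nearness is partly expected.

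C8orf58 was farther from the other two than they were from each other. It lay 1.03 from SLC5A3_1, to which 370 genes were closer, and 0.872 from RIMKLA, with 1700 genes closer to C8orf58 than RIMKLA and a median gene at 1.02. Its nearest genes were the row RP4-539M6.19 at 0.213, the row RP11-51O6.1 at 0.296 and CAMK1D, a calcium-dependent kinase, at 0.297. CAMK1D had 12.0 TPM in the control, 5.5 (native) and 7.8 (methylated) in the let-7a libraries, and 9.1 (native) and 7.8 (methylated) in the miR-17 libraries, and 0 let-7a matches in its 3′ UTR. These distances rest on 5 libraries of 1 sample each, including the control and native let-7a libraries that chose the genes, and describe likeness only.

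**Figure D4:**
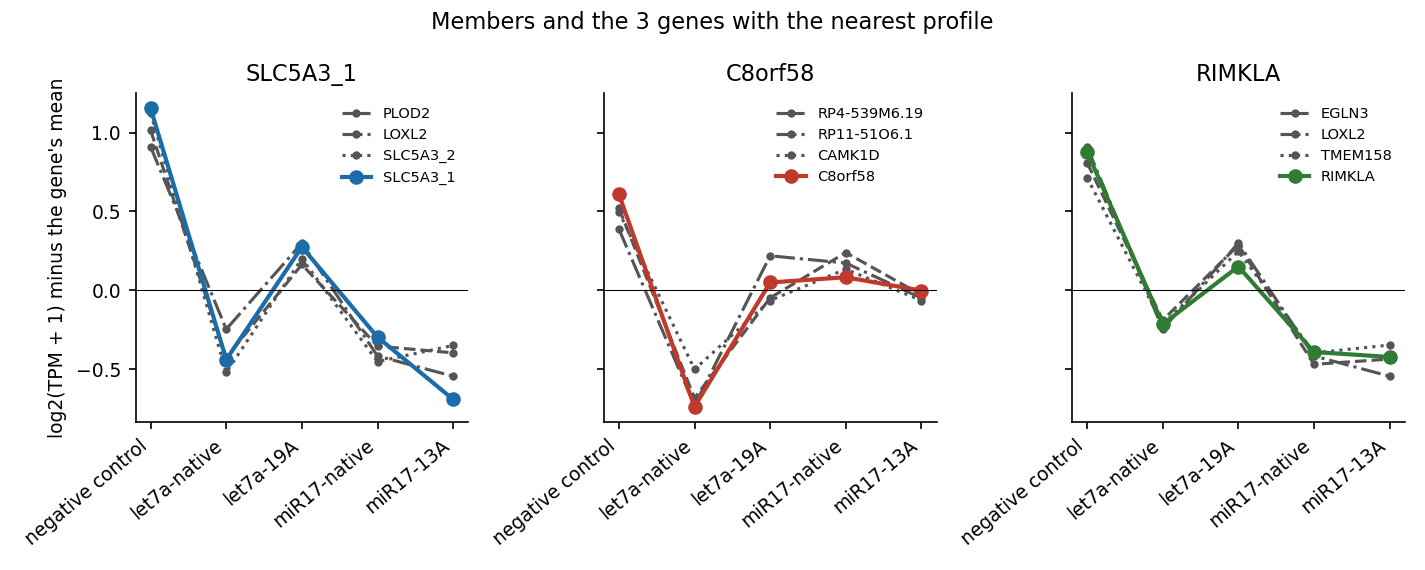
Profiles over the 5 libraries of log2(TPM + 1) minus the gene's own mean, for each gene (coloured) and its 3 nearest (grey). SLC5A3_1 and RIMKLA share a step up from native to methylated let-7a and low miR-17 libraries with PLOD2, LOXL2 and EGLN3, and C8orf58 has its single low point with native let-7a.

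Other genes of myo-inositol and osmolyte handling were taken from a list. Of 15 in the list, 12 passed the filter of 1 TPM, and 8 were lower and 4 higher than the control with native let-7a (47.9% of all genes tested were lower), 0 of them at least 2-fold lower (1.18% of all), with a median of -0.11 against 0.0 for all genes tested. ISYNA1, which makes inositol phosphate from glucose phosphate, had 279.0 TPM in the control and 197.7 and 197.1 TPM (native, methylated) in the let-7a libraries and 229.6 and 243.2 TPM in the miR-17 libraries. NFAT5, the transcription factor that switches on osmolyte transporters such as SLC5A3 in hypertonic medium, had 59.4, 44.3, 49.4, 50.2 and 40.5 TPM from the control to methylated miR-17. CDIPT, which makes phosphatidylinositol, had between 67.0 and 77.2 TPM. The amino acid transporter SLC38A2 had 1188.5 TPM in the control, 1104.6 and 1221.3 in the let-7a libraries, and 835.6 and 739.7 in the miR-17 libraries. In methylated minus native let-7a, 6 of the 12 were higher and 6 lower, where 39.8% of all genes were higher.

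Genes around RIMKLA in N-acetylaspartate and NAAG metabolism were mostly low in this line. Of 11 listed, 5 passed the filter, and 0 of them was at least 2-fold lower with native let-7a, as 1.18% of all genes were, a share at which 0 of 5 says little. RIMKLB, the other NAAG ligase, was listed at 0 in 3 libraries and at 0.1 TPM with native and methylated miR-17, so RIMKLA was the ligase with the higher level in each library. The lysosomal transporter SLC17A5 had 72.1 TPM in the control, 51.7 and 59.3 (native, methylated) with let-7a, and 62.2 and 56.3 with miR-17. The aspartate aminotransferase GOT1 had 157.6 TPM in the control and 223.3, 180.9, 237.4 and 245.2 TPM in the others, and GOT2 between 115.9 and 137.6 TPM.

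Textbook let-7 targets give a further scale. Of 32 listed, 28 passed the filter, and with native let-7a 23 were lower and 5 higher than the control, where 47.9% of all genes were lower. The list's median was -0.35, against 0.0 for all genes, and 1 was at least 2-fold lower (1.18% of all), HMGA2 (-1.19). HMGA2 has 7 let-7a matches in 1 of its annotated 3′ UTRs and 0 in the longest, so the search of the longest did not count it as a site gene. For HMGA2 the difference was -0.97 with methylated let-7a, and for miR-17 it was -0.60 (native) and -0.83 (methylated). IRS2, an insulin receptor adaptor, was at least 2-fold lower only with methylated miR-17 (-1.05), among the comparisons made. The most abundant of the list, HMGA1 and BZW1, differed by 0.05 and -0.21 with native let-7a. Against the mean of the miR-17 libraries, native let-7a gave the list a median of -0.22, with 19 of 28 lower, where all genes had a median of 0.03 and 44.9% were lower. With methylated let-7a 24 were lower and 4 higher than the control, where 56.1% of all genes were lower. In methylated minus native let-7a 22 were higher and 6 lower, where 39.8% of all genes were higher. The list's median there was 0.15, against -0.03 for all genes, and the cause was not tested.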

How the data were processed

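The deposited table holds TPM values per gene, made by the authors and rounded to 1 decimal. Isogen extraction of total RNA and stranded libraries depleted of ribosomal RNA are named per the labels' protocols, and per the submitters' processing notes the build was hg19. The sources used here do not give the aligner, the counter, the annotation or the depth. Differences are of log2(TPM + 1) over genes that averaged 1 TPM or more, and a 2-fold rule of size replaced a test, since each group holds 1 library. Of the identifiers, 90.6% were found in GENCODE 29, which is on another build, so it served for sequences, gene types and chromosomes. The longest annotated 3′ UTR of each gene, of at least 50 bases, was searched. The genes named were the members, other rows of their symbols, neighbours, the next 3 site genes, the 3 nearest profiles and up to 4 per list, and further genes named after their values were seen are said to be so. The members and lists were chosen with earlier results of these data known. Python 3.11.15, pandas 2.3.3 and numpy 2.4.6 were used, and the scripts were tested on simulated data. The simulation of the 2-fold rule raised low values and planted changes larger than those of the members, so it did not check the rule at low levels. Alternatives were pseudocounts of 0.1 and 5, other filters, and TPM rescaled without mitochondrial and ribosomal protein genes or by median-of-ratios factors. The use of the second SLC5A3 row, alone or summed, the order and counts of site genes by any annotated 3′ UTR, and the contrast of native let-7a against miR-17 were added after the data were seen.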

Additional observations from a re-analysis of the deposited data

Results flagged for a closer look

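Methylated minus native moved in opposite directions in the let-7a and miR-17 libraries for all 3 genes, and the difference was not tested, with 1 library on each side. For SLC5A3_1 it was 0.72 (log2) in let-7a and -0.39 in miR-17, for C8orf58 0.79 and -0.08, and for RIMKLA 0.37 and -0.03. The same opposite directions were present in 4214 of 14177 genes (29.7%), and a low native let-7a value chose the 3 genes. The direction in miR-17 was not stable, as RIMKLA turned to 0.037 and C8orf58 came to -0.0023 with median-of-ratios scaling. In the row SLC5A3_2 both differences were above 0, at 0.72 and 0.10.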

How the results depend on the processing

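The 27 differences of the members (9 comparisons of 3 genes) were recomputed under 126 alternatives, of which 119 kept their sign, their side of 2-fold and a fold (in TPM plus pseudocount) within 1.5 times the reported one. With a pseudocount of 5, RIMKLA was no longer 2-fold lower than the control with native let-7a (-0.71), native miR-17 (-0.81) or methylated miR-17 (-0.83), since that pseudocount shrinks the change of low genes. Methylated minus native miR-17 turned to 0.037 for RIMKLA with median-of-ratios scaling and to 0.10 for SLC5A3 in its other row. Native let-7a minus mean miR-17 turned to -0.12 for SLC5A3 in its other row and -0.041 in the sum of rows. Neither rescaling moved the median of all genes by more than 0.0793 (log2).

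Counts of genes at least 2-fold apart depended on the pseudocount and filter, which by construction act on low values. With native let-7a against the control the 339 genes became 626 with a pseudocount of 0.1, 80 with 5, 111 with a mean of at least 5 TPM and 585 with no filter. In the same order, methylated against native let-7a went from 271 to 493, 43, 46 and 515, methylated let-7a against the control from 305 to 526, 42, 74 and 546, native miR-17 against the control from 480 to 825, 124, 232 and 721, and methylated against native miR-17 from 232 to 433, 33, 51 and 470. Without the last setting, methylated miR-17 against the control went from 519 to 907, 137 and 253, mean let-7a against mean miR-17 from 264 to 533, 65 and 141, and methylated let-7a against mean miR-17 from 343 to 643, 82 and 148. The highest site count in any annotated 3′ UTR equalled that in the longest for all 3 genes. SLC5A3 and RIMKLA have 1 annotated 3′ UTR each, so it could differ only for C8orf58, which has 5. Whether each of those 5 holds the let-7a match was not recorded. In the order by that search, an order added after the data were seen, RIMKLA moved from place 3 to 5 among let-7a site genes. No paired analysis was possible because each group holds 1 library. Depth is unknown, so no counting interval could be given.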

Other observations

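Further let-7a site genes stood just behind the 3 in the order by native let-7a minus control, and they were named after their values were seen. The histone demethylase KDM3A had 33.6 TPM in the control, 17.6 (native) and 28.1 (methylated) in the let-7a libraries, and 19.1 (native) and 19 (methylated) in the miR-17 libraries. The oxidase ERO1L ran 67.9, 35.9, 45.3, 34.7 and 32.4 TPM and the aldolase ALDOC 413.3, 222.3, 284.7, 152.9 and 193.6 TPM in the same order. HK2, with 79.5, 38.5, 59.3, 37.6 and 37.1 TPM, had miR-17 levels near that of native let-7a, as had KDM3A, and both have 0 miR-17 matches in the 3′ UTR searched. THBS1, a matrix glycoprotein, ran 6.7, 3.1, 3.9, 7.0 and 5.1 TPM, with its 2 lowest values in the let-7a libraries.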
